A study of Capra hircus with 4 samples.

Results

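The genes described here are the AP-1, EGR and ATF3 immediate early genes of goat longissimus muscle. They were chosen by name: FOS, FOSB, JUN, JUNB, JUND, ATF3 and EGR1 were looked up among the gene names that the authors' table gives to assembled transcript groups, called unigenes. Of these 7 names, 5 were found, namely FOS, JUN, JUNB, ATF3 and EGR1, on 8 unigenes. The table holds 11208 goat gene names on 21195 unigenes, of 59774 unigenes in all. FOSB and JUND were not among the names, and the unigenes that match them are described after the named genes.

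The study followed Cashmere Goats given ractopamine, a feed additive that acts on beta-adrenergic receptors, and asked which transcripts tell dosed from undosed animals. The 4 libraries were made from the Longissimus dorsi muscle of goats aged 2 months. The control group is 1 library from goats without the drug. The treatment group is 3 libraries, called here T1, T2 and T3 by their numbers in the labels, from goats given ractopamine orally at 1 mg/kg, in a trial with 28 dosing days followed by 21 withdrawal days. The design text calls the treated libraries replicates, whereas the methods describe sequencing at several times with controls for each. The labels give no time for a library and do not say whether the libraries came from separate goats, so each treated library is described under its own number against the only control library. A difference between treated libraries may thus be one of time, of animal or of library.

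Immediate early genes are transcribed within minutes of a stimulus, without the need for new protein, by factors such as SRF and CREB that are already bound and are switched on by MAP kinases or by cyclic AMP and protein kinase A. FOS, FOSB, JUN, JUNB and JUND encode the leucine zipper proteins that pair to form AP-1, ATF3 encodes a related zipper protein that is induced by stress, and EGR1 encodes a zinc finger factor. In skeletal muscle their transcripts are known to rise briefly after contraction, injury, adrenergic stimulation and tissue handling.

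The unigene sequences show which parts of these genes the counts rest on and how alike the family members are. The stretches below are read 5′ to 3′ along the coding strand from the deposited unigene sequences. In the zipper genes the 78 bases begin in the basic region, which contacts DNA, and run into the zipper, with the 18 bases of 6 basic region codons in capitals. The unigenes of FOS, LOC100860839 and EGR1 were deposited in the opposite direction and are shown reverse complemented. In EGR1 the 69 bases cover the first zinc finger, with the 21 bases of its DNA-contacting helix in capitals.
FOS c21876_g1: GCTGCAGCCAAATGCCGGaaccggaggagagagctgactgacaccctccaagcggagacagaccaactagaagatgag
LOC100860839 c7944_g1: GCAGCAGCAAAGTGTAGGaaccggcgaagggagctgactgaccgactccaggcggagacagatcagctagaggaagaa
JUN c11482_g1: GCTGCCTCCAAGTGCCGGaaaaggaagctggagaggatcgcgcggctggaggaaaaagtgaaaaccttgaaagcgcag
JUN c13756_g1: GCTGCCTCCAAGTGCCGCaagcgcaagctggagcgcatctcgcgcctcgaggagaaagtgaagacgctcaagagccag
JUNB c10586_g1: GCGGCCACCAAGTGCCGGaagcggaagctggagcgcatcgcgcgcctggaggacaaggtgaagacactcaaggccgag
ATF3 c10756_g1: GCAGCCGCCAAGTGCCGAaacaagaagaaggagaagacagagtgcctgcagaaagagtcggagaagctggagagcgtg
EGR1 c1498_g2: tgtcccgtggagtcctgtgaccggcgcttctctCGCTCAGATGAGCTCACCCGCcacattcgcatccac

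The 2 unigenes shown under the name JUN differed from each other over this stretch, with 60 of 78 bases the same (76.9%) and 17 of the 18 capital bases the same. The JUNB stretch had 66 of 78 bases in common with c13756_g1 (84.6%) and 62 with c11482_g1 (79.5%). Over all 78 bases, c13756_g1 thus had more in common with JUNB than with the other JUN unigene. In the 18 capital bases it was the reverse, with 15 shared with JUNB and 17 with c11482_g1. The encoded residues were not compared. FOS and LOC100860839 shared 61 bases (78.2%), and FOS and JUN c11482_g1 shared 39 (50.0%). ATF3 shared 47 to 49 bases with each of the others (60.3 to 62.8%). The longest identical run between any pair of the 3 unigenes named JUN, on either strand, was 22 to 24 bases. How the counting treated reads that match several unigenes, and which strand it used, are not stated, so counts of near-identical stretches are uncertain.

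The libraries held 6675218 to 8533046 counts over all unigenes. Counts on unigenes with a goat gene name made up 71.3% of the control library, 50.1% of T1, 40.4% of T3 and 1.82% of T2, and 25 unigenes with a protein match but no gene name took 22.2, 37.5, 49.7 and 84.3% in the same order. Levels are therefore given as CPM, here the counts per 1000000 goat-named counts, and x-folds also relative to all counts. T2 held only 133809 goat-named counts, so that the limit allowed by a count of 0, set at 3 counts, is 22.4 CPM there against 0.493 to 1.11 in the other libraries. The summed level of skeletal muscle markers was high in all 4 libraries, between 100125 and 155002 CPM. Of 12 listed markers, 7 were in the table, with creatine kinase CKM and desmin DES among the highest. The skeletal actin ACTA1, of the same list, was low, at 21.4 CPM without the drug, 1.50 in T1 and 1.11 in T3. It was at 0 in T2, where the limit is 22.4 CPM.

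FOS, the AP-1 subunit that cannot bind DNA without a JUN partner, had 823 counts in the control library, 1083 in T1, 1 in T2 and 239 in T3. These are 135, 271, 7.47 and 88.6 CPM. T1 lay above the control library and both other treated libraries below it. JUN, the usual partner of FOS, had 2087, 3547, 22 and 1064 counts over its 3 unigenes, which are 343, 889, 164 and 394 CPM. T1 and T3 lay above the control library and T2 below it. JUNB, a JUN relative that often opposes JUN, had 51, 173, 1 and 65 counts, which are 8.38, 43.3, 7.47 and 24.1 CPM. T1 and T3 stood above the control library, while the 1 count in T2 cannot place it.

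ATF3 had 140, 535, 1 and 78 counts in the control library and T1, T2 and T3, which are 23.0, 134, 7.47 and 28.9 CPM. T1 stood above the rest. EGR1 had 24, 46, 3 and 18 counts on its 2 unigenes, which are 3.94, 11.5, 22.4 and 6.67 CPM. Its highest value, in T2, rests on 3 counts. In bulk muscle, fewer cells of a type and less RNA per cell cannot be told apart, and this holds for every level given here.

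**Figure D1:**
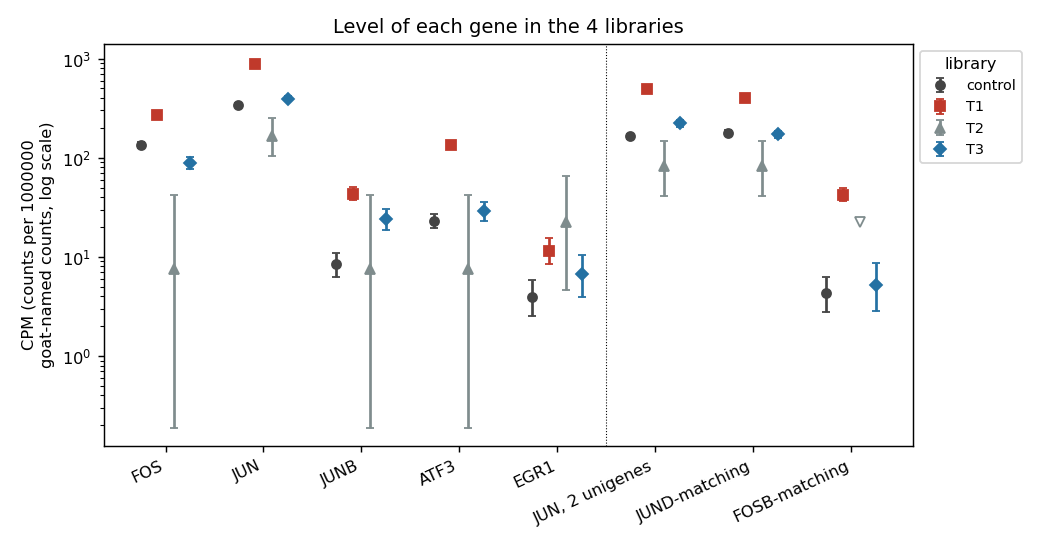
Level of each gene in CPM (counts per 1000000 goat-named counts), on a log axis, for the control library (circles) and T1 (squares), T2 (triangles) and T3 (diamonds), with exact 95% Poisson intervals for counting error. Right of the dotted line are JUN without c13756_g1, that unigene alone, and all FOSB-matching unigenes, where the open triangle marks the 22.4 CPM that 0 counts allow in T2. T1 is highest for every gene except EGR1, and the intervals of T2 are wide.

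Per kilobase of unigene, the control library ranked JUN at 65.2, FOS at 64.0, ATF3 at 20.9, JUNB at 4.57 and EGR1 at 1.51 CPM. JUN and FOS did not differ beyond counting error there, with a ratio of 1.02 (exact 95% interval 0.940 to 1.11). T1 and T3 had the same order. In T1 the levels were 169, 128, 122, 23.6 and 4.41, and FOS and ATF3 did not differ beyond counting error, with a ratio of 1.06 (0.951 to 1.17), whereas in the control library FOS was 3.07 times ATF3 (2.56 to 3.69). In T3 they were 75.0, 41.9, 26.2, 13.1 and 2.56, and each neighbour differed from the next beyond counting error. In T2 only JUN, at 31.3, stood apart from its neighbour EGR1, at 8.59. The JUN value per length is a mean over 3 unigenes that are not all of the same gene. Without c13756_g1, the unigene that matches JUND, JUN was at 44.2 in the control library, below FOS. It was then at 60.0 in T3, above FOS. In T1 it was at 132 beside 128 for FOS, and whether these differ beyond counting error was not tested. The order of JUN and FOS in the control library thus depends on c13756_g1. In T1 the order also depends on the part counted, with c11482_g1 at 176 and c11482_g2 at 87.6.

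The first question was how each treated library compared with the control library. The x-fold is the share of counts in the treated library divided by that in the control library. Its exact 95% interval (Clopper-Pearson) covers counting error only, since the spread between goats cannot be seen with 1 control library and no molecular identifiers are described for these PCR-amplified reads. A gene is counted as above 3-fold or below 0.6-fold from x-folds with 0.5 added to each count, among 8633 goat genes with at least 20 counts over the 4 libraries. All 5 named genes passed that minimum.

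In T1 all 5 named genes were higher than in the control library beyond counting error. ATF3 was 5.83 times the control level (4.83 to 7.07), JUNB 5.17 times (3.77 to 7.22), EGR1 2.92 times (1.75 to 5.01), JUN 2.59 times (2.45 to 2.74) and FOS 2.01 times (1.83 to 2.20). ATF3 and JUNB were above 3-fold, which is 2 of 5, against 5.13% of all goat genes tested, and 0 of 5 were below 0.6-fold, against 37.8%. The median of the 5 was 2.89, and that of all goat genes was 0.753, or -0.41 on the log2 scale. Set against that median gene, FOS was 2.67, JUN 3.44, EGR1 3.84, JUNB 6.82 and ATF3 7.72 times the control level. By x-fold, ATF3 stood at percentile 98.4 of the tested genes, JUNB at 98.0, EGR1 at 94.5, JUN at 93.3 and FOS at 89.0. Relative to all counts the order stayed the same at lower values: ATF3 was 4.10 times (3.39 to 4.97), JUNB 3.64 times (2.65 to 5.07), EGR1 2.05 times (1.23 to 3.52), JUN 1.82 times (1.72 to 1.92) and FOS 1.41 times (1.29 to 1.55) the control level. ATF3 and JUNB were again above 3-fold, against 2.73% of all goat genes, and 0 of 5 below 0.6-fold, against 56.5%. With the 25 matches without a gene name added to the goat total, the values lay between these, from 1.51 for FOS to 4.36 for ATF3.

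In T3 the named genes parted. JUNB was 2.88 times the control level (1.96 to 4.23) and JUN 1.15 times (1.07 to 1.24), both higher beyond counting error, while FOS was 0.655 times (0.565 to 0.758), lower beyond counting error. ATF3 at 1.26 (0.940 to 1.67) and EGR1 at 1.69 (0.865 to 3.25) had intervals that include 1. Of the 5 genes, 0 were above 3-fold, against 2.73% of all goat genes, and 0 were below 0.6-fold, against 38.1%. Their median was 1.26 beside 0.728 (-0.46 on the log2 scale) for all goat genes, and set against that median gene FOS was 0.901, JUN 1.58, ATF3 1.73, EGR1 2.34 and JUNB 3.94 times the control level. By x-fold JUNB stood at percentile 97.0 while FOS stood at 43.6. Relative to all counts, JUNB remained higher at 1.63 (1.11 to 2.40), FOS was 0.371 times (0.320 to 0.429) and below 0.6-fold, against 72.5% of all goat genes (0 of 5 were above 3-fold, against 0.765%), and JUN turned to 0.652 (0.605 to 0.702) and ATF3 to 0.712 (0.533 to 0.946). The direction for JUN and ATF3 in T3 thus depends on the total used.

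T2 has too few goat-named counts for most of these genes. FOS, at 1 count, was 0.0553 times the control level (0.00140 to 0.309), and JUN, at 22 counts, was 0.479 times (0.300 to 0.728), both lower beyond counting error. ATF3 at 0.325 (0.00817 to 1.84) and JUNB at 0.892 (0.0222 to 5.20) rest on 1 count each, and EGR1 at 5.69 (1.10 to 18.7) on 3 counts. With 0.5 added, 1 of 5 genes was above 3-fold, against 15.7% of all goat genes, and 3 of 5 were below 0.6-fold, against 31.3%. Relative to all counts all 5 were below 0.6-fold, EGR1 included, as were 99.0% of all goat genes, and 0 of 5 were above 3-fold, against 0.0927%.

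**Figure D2:**
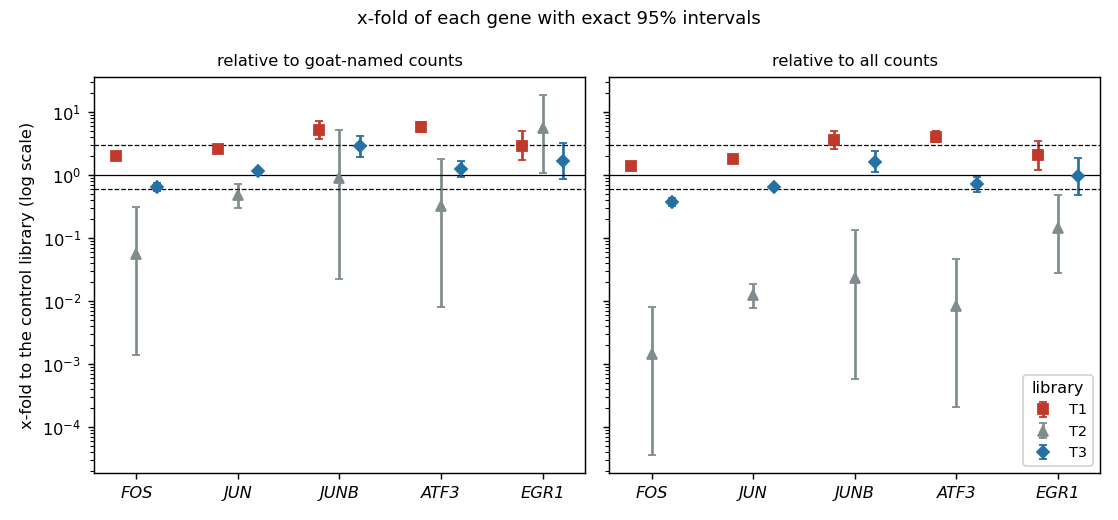
x-fold of each gene in T1 (squares), T2 (triangles) and T3 (diamonds) to the control library, on a log axis, relative to goat-named counts (left) and to all counts (right), with exact 95% intervals for counting error. Dashed lines mark 3-fold and 0.6-fold and the solid line equal shares. ATF3 and JUNB of T1 lie above 3-fold on both scales, and all values of T2 drop on the right.

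**Figure D3:**
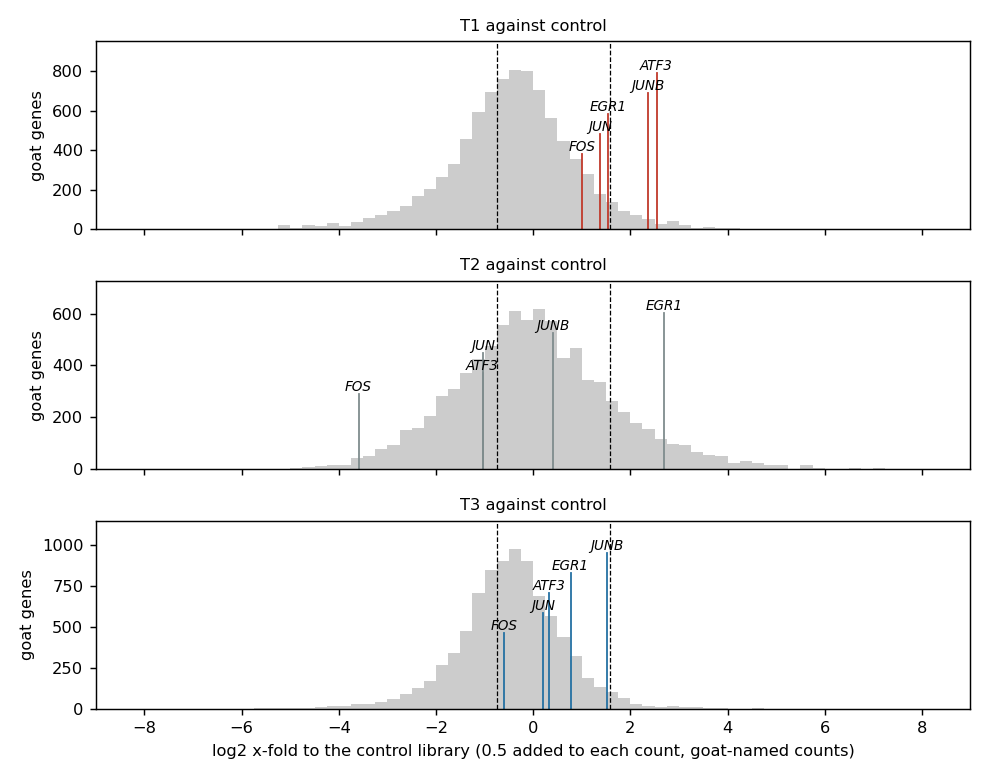
Number of goat genes (of 8633 tested) by log2 x-fold to the control library relative to goat-named counts, for each treated library, with the 5 named genes as vertical lines and the limits of 3-fold and 0.6-fold dashed. The genes sit in the upper tail in T1, spread over the whole range in T2, and lie around and above the middle in T3.

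The treated libraries share the control library, so they were also set against each other directly. FOS was 3.06 times as high in T1 than in T3 (2.66 to 3.54), JUN 2.25 times (2.10 to 2.42), JUNB 1.80 times (1.35 to 2.43) and ATF3 4.64 times (3.65 to 5.96). These 4 genes differed between the 2 treated libraries beyond counting error, and EGR1, at 1.73 times (0.982 to 3.17), did not. JUN was 2.40 times as high in T3 than in T2 (1.58 to 3.84).

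The second question was whether the treated libraries as a group differed from the control library. In edgeR's quasi-likelihood test with Benjamini-Hochberg adjustment over 8633 goat genes, 0 of the 5 named genes passed an adjusted p of 0.05, against 0.591% of all goat genes (51 genes, with 0.255% higher and 0.336% lower). The estimate for JUNB was higher in the treated libraries by 2.15 on the log2 scale (edgeR adjusted p = 0.282), for ATF3 by 1.83 (edgeR adjusted p = 0.406) and for EGR1 by 1.76 (edgeR adjusted p = 0.422). For JUN the estimate was 0.88 (edgeR adjusted p = 0.813) and for FOS 0.32 (edgeR adjusted p = 0.950), which turned to -0.06 with total goat-named counts in place of TMM factors. Without adjustment 3 of the 5 passed 0.05, as did 1012 goat genes, and DESeq2 called 0 of the 5, with 0 at an unadjusted p under 0.05. The fit takes the lone control library to vary like the treated ones, and p-values measure only the spread between these libraries. In simulated counts with the spread (dispersion) estimated here, 0.23, the edgeR test recovered 26 of 200 planted 8-fold changes. A gene that was not called is therefore not shown to be unchanged. Without T1, the edgeR estimate for ATF3 fell from 1.83 to 0.25 and that for FOS turned to -0.96. Without T2 the estimates were 2.41 for JUNB (edgeR adjusted p = 0.140) and 2.23 for ATF3 (edgeR adjusted p = 0.211).

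The counts listed under JUN come from 3 unigenes, which did not move alike. The unigene c11482_g1 starts inside the basic region and carries the 3′ part of JUN (100% protein identity), c11482_g2 carries the 5′ part (94%), and c13756_g1 was named JUN at 80% identity while its best nucleotide match was cattle JUND. The 3′ part had 332, 1317, 7 and 291 counts in the control library and T1, T2 and T3, and the 5′ part 667, 643, 4 and 310. The 3′ part was thus 0.498 times the 5′ part in the control library (0.435 to 0.569), 2.05 times in T1 (1.86 to 2.25) and 0.939 times in T3 (0.797 to 1.11). These ratios are within a library and need no scaling, and those of the control library and T1 do not overlap. In T1 the 3′ part was 6.05 times (5.36 to 6.84) and the 5′ part 1.47 times (1.32 to 1.64) the control level. In T3 they were 1.98 times (1.68 to 2.32) and 1.05 times (0.913 to 1.20), so the x-fold of JUN depends on which part is counted. Coverage along the transcript may differ between libraries, and its part in the result was not tested.

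The JUND-matching unigene c13756_g1 had 1088, 1587, 11 and 463 counts, more than either JUN part in each library. JUND is the AP-1 subunit that most cells express at rest. Its x-fold was 2.22 in T1 (2.06 to 2.41), 0.460 in T2 (0.229 to 0.826) and 0.960 in T3 (0.859 to 1.07). JUN without it had 999, 1960, 11 and 601 counts, with x-folds of 2.99 (2.77 to 3.23), 0.501 (0.249 to 0.900) and 1.36 (1.22 to 1.50). Leaving it out thus raised the x-fold of JUN in each treated library, and JUN stayed below 3-fold in T1.

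**Figure D4:**
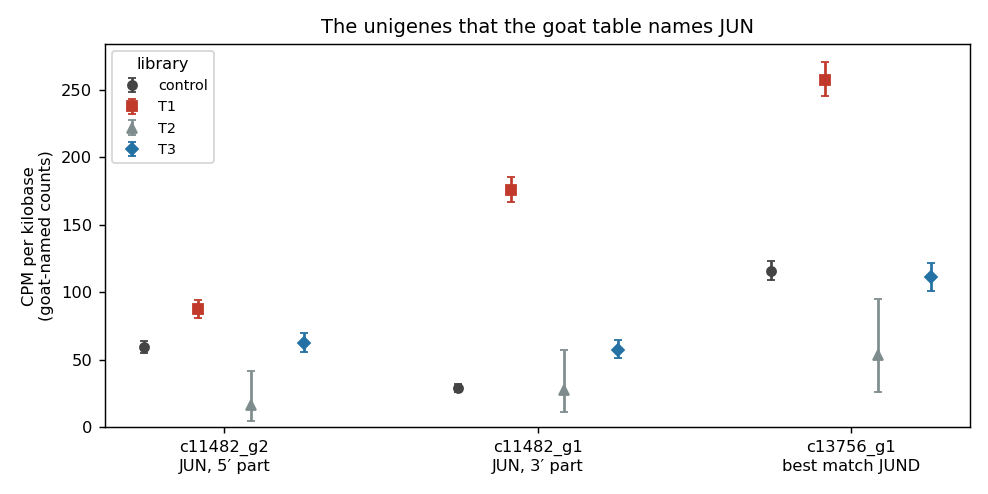
Counts per kilobase of unigene and per 1000000 goat-named counts for the 3 unigenes that the authors' table names JUN, in the control library (circles) and T1 (squares), T2 (triangles) and T3 (diamonds), with exact 95% Poisson intervals for counting error. The 5′ part lies above the 3′ part in the control library and below it in T1, and the JUND-matching unigene is the highest of the 3 in each library.

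FOSB, a FOS relative, was present under another name. The goat gene LOC100860839 has the gene ID 100860839, which RefSeq (ARS1.2) lists as FOSB, and 3 further unigenes without a goat gene had FOSB as their best nucleotide match. LOC100860839 had 3, 14, 0 and 3 counts in the control library and T1, T2 and T3, and the 3 further unigenes together had 23, 155, 0 and 11. All FOSB-matching unigenes summed to 26, 169, 0 and 14 counts, which are 4.27, 42.3, 0 and 5.19 CPM, where 0 counts in T2 allow up to 22.4 CPM. T1 was 9.91 times the control level (6.53 to 15.6), and T3, at 1.21 times (0.586 to 2.41), did not differ from it beyond counting error. Relative to all counts these were 6.97 times (4.59 to 11.0) and 0.688 times (0.332 to 1.37). The FOSB sum in T1 was thus higher relative to the control library than FOS, whose interval of 1.83 to 2.20 does not overlap that of the sum. Of the 169 counts in T1, 125 lay on the unigene c10462_g1, which was 23.8 times the control level (11.7 to 56.4). Each other FOSB-matching unigene had an interval that overlaps that of FOS, such as c46308_g1 at 3.73 (1.65 to 9.20) and c7944_g2 at 2.03 (0.619 to 7.11). These unigenes were sought after the table had been seen to lack the name.

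Ratios between genes of the same library do not depend on the total either. ATF3 had 0.170 counts per FOS count in the control library (0.141 to 0.204), 0.494 in T1 (0.445 to 0.548) and 0.326 in T3 (0.249 to 0.423). JUNB had 0.0620 counts per FOS count (0.0458 to 0.0823), 0.160 (0.135 to 0.188) and 0.272 (0.203 to 0.359) in the same libraries. JUN had 2.54 (2.34 to 2.75), 3.28 (3.06 to 3.51) and 4.45 (3.87 to 5.14). All 3 genes gained on FOS in T1 and T3 beyond counting error, JUNB and JUN most in T3 and ATF3 most in T1. For JUN this holds for the sum of its 3 unigenes. Its 5′ part c11482_g2 rose less than FOS in T1, at 1.47 (1.32 to 1.64) against 2.01 (1.83 to 2.20) times the control level. ATF3 has 2 transcripts on its unigene, of 1128 and 1054 bases, and both had more counts in T1, with 75, 286, 1 and 47 counts for the longer and 65, 249, 0 and 31 for the shorter.

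Other immediate early genes were mostly higher in T1 too. Of 44 names listed, some genes under an older and a newer symbol, 32 were tested. Above 3-fold were 20 in T1, 11 in T2 and 10 in T3, against 5.13, 15.7 and 2.73% of all goat genes, and 2, 6 and 4 were below 0.6-fold, against 37.8, 31.3 and 38.1%. Their median x-folds were 3.70, 1.62 and 1.24, beside 0.753, 0.968 and 0.728 for all goat genes. By mean CPM over the 4 libraries, without regard to length, the highest were DUSP1, a phosphatase that switches off MAP kinases, MCL1, a survival factor, and NR4A1, an orphan nuclear receptor. DUSP1 had 504, 1583, 9 and 420 counts, with x-folds of 4.79 (4.33 to 5.31) in T1 and 1.88 (1.65 to 2.14) in T3. NR4A1 had 284, 674, 7 and 518 counts, with x-folds of 3.62 (3.15 to 4.17) and 4.12 (3.55 to 4.77), so that, unlike for ATF3, its value in T3 was not below that in T1. MCL1 had 894, 1073, 11 and 279 counts and was 1.83 times the control level (1.67 to 2.00) in T1 and 0.704 times (0.613 to 0.806) in T3, the same directions as FOS. On the scale of all counts, with 0.5 added, DUSP1 was 3.36 and 1.07, NR4A1 2.54 and 2.33 and MCL1 1.29 and 0.399 times the control level in T1 and T3. DUSP6, another MAP kinase phosphatase, which is named after its values were seen, had more counts than these in the control library and went the other way, with 941, 140, 3 and 335 counts and an x-fold of 0.227 in T1.

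Above 3-fold in all 3 treated libraries were KLF4, CTGF, BTG2, NR4A2, NR4A3, HES1 and ID1, and HBEGF, a growth factor, was below 0.6-fold in all 3. ID1, an inhibitor of muscle differentiation factors, had 32, 310, 23 and 173 counts and was 14.8 (10.2 to 22.0), 32.7 (18.3 to 57.6) and 12.2 (8.33 to 18.4) times the control level in T1, T2 and T3. KLF4, a zinc finger factor, had 110, 260, 15 and 265 counts and was 3.60 (2.87 to 4.55), 6.20 (3.36 to 10.7) and 5.44 (4.34 to 6.85) times that level. The other 5 genes above 3-fold had 0 to 3 counts each in T2, where the added 0.5 carries weight, and NR4A3 had 0 there. HBEGF had 184, 23, 0 and 33 counts, so its call in T2 rests on 0 counts, with an interval of 0 to 0.921. Relative to all counts, with 0.5 added, ID1 was 10.2, 0.841 and 6.82 times and KLF4 2.53, 0.163 and 3.07 times the control level.

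Among the other AP-1 and zipper partners, 15 of 28 names were tested, and 2, 3 and 1 were above 3-fold in T1, T2 and T3, against 5.13, 15.7 and 2.73% of all goat genes, while 2, 1 and 7 were below 0.6-fold, against 37.8, 31.3 and 38.1%. CREM, a repressor and activator of cyclic AMP response genes, had 237, 1843, 11 and 120 counts and was 11.9 times the control level in T1 (10.4 to 13.6) and 1.14 times in T3 (0.909 to 1.43). As for ATF3, its value in T1 was past 3-fold and its interval in T3 included 1. It was 8.32 times in T1 and 0.649 times in T3 relative to all counts, with 0.5 added. FOSL1, a FOS relative, had 1, 84, 0 and 2 counts, a ratio of 128 in T1 whose interval runs from 22.4 to 5119. ATF4, the stress factor that induces ATF3, had 5895, 5465, 136 and 3326 counts and was 1.41 (1.36 to 1.47), 1.05 (0.879 to 1.24) and 1.27 (1.22 to 1.33) times the control level in T1, T2 and T3. These became 0.993, 0.0269 and 0.721 relative to all counts, with 0.5 added, so the direction of ATF4 depends on the total used. Of the EGR relatives and cofactors only NAB1 and NAB2, which repress EGR1 activity, were tested. NAB1 had 28, 9, 1 and 11 counts and NAB2 63, 62, 5 and 41.

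Genes upstream were counted in the same way, with background shares of 5.13, 15.7 and 2.73% above 3-fold and 37.8, 31.3 and 38.1% below 0.6-fold in T1, T2 and T3. Of 18 tested genes of the SRF and CREB arm, 0 were above 3-fold and 13 below 0.6-fold in T1, 2 and 10 in T2, and 0 and 10 in T3. PRKACA, the catalytic subunit of protein kinase A, had 745, 100, 5 and 196 counts and was 0.205 times the control level in T1 (0.164 to 0.253) and 0.594 times in T3 (0.505 to 0.696). The MAP kinase arm counted together MAP kinases, the kinases that act on them and DUSP phosphatases. Of its 21 tested genes, 0, 1 and 0 were above 3-fold and 10, 13 and 10 below 0.6-fold in T1, T2 and T3. The phosphatase gene DUSP26, among its most abundant, had 5780, 3826, 106 and 1857 counts. It was 1.01 times the control level in T1 (0.969 to 1.05) and 0.725 times in T3 (0.688 to 0.764). Relative to all counts, with 0.5 added, it was 0.709 and 0.411 times that level. The p38 kinase gene MAPK14 had 246, 37, 2 and 46 counts, 0.229 times the control level in T1 (0.158 to 0.325).

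Genes downstream and stress genes are read against the same background shares, 5.13, 15.7 and 2.73% above 3-fold and 37.8, 31.3 and 38.1% below 0.6-fold. Of 9 tested AP-1 and EGR1 target genes, 2, 4 and 1 were above 3-fold and 2, 2 and 3 below 0.6-fold. TIMP3, a protease inhibitor, had 431, 686, 69 and 215 counts and was 2.43 times the control level in T1 (2.15 to 2.74) and 7.28 times in T2 (5.56 to 9.41), which became 1.70 and 0.187 times relative to all counts, with 0.5 added. VEGFA, the vascular growth factor, had 441, 479, 1 and 85 counts and was 1.66 (1.45 to 1.89) and 0.435 (0.341 to 0.550) times that level in T1 and T3, higher and lower as FOS was, and 1.16 and 0.248 times relative to all counts. Of 8 tested integrated stress response genes that are often induced with ATF3, 2, 1 and 0 were above 3-fold and 3, 1 and 2 below 0.6-fold. DDIT4, a stress-induced inhibitor of mTOR, had 580, 1200, 16 and 642 counts and was 3.16 (2.86 to 3.49) and 2.50 (2.23 to 2.80) times the control level in T1 and T3. Relative to all counts, with 0.5 added, it was 2.22 and 1.41 times that level. CDKN1A, of the same list, had 271, 72, 2 and 24 counts and was below 0.6-fold in all 3 treated libraries. Its interval in T2, 0.0404 to 1.22, included 1. Of 9 tested heat shock genes, 1, 0 and 0 were above 3-fold and 0, 5 and 6 below 0.6-fold. CRYAB, a small heat shock protein of muscle, was 3.69 times the control level in T1 (3.65 to 3.74) and 0.303 times in T3 (0.294 to 0.312). Relative to all counts, with 0.5 added, it was 2.59 and 0.172 times that level.

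Markers of other cell types moved with some libraries. The summed level of adipocyte markers, of which 4 of 6 were in the table, was 51.4 CPM in the control library, 280 in T1, 1121 in T2 and 63.4 in T3, with 0 markers at 0. That of myeloid markers (5 of 8) was 3.12, 11.0, 7.47 and 4.45, with CD14 at 0 in each treated library and 4 of the 5 at 0 in T2. Both were higher in T1 than in the control library, as were the 5 named genes, and their part in the result was not tested. Fibroblast markers (5 of 7) summed to 138, 199, 2406 and 290, with PDGFRA at 0 in the treated libraries, and endothelial markers (6 of 7) to 331, 275, 1031 and 441. Satellite cell markers (3 of 5) summed to 75.6, 39.6, 82.2 and 58.6, and red blood cell markers (2 of 7) to 4.44, 6.01, 14.9 and 7.04. Smooth muscle markers (5 of 5) summed to 39243, 24845, 31934 and 55553, nearly all of it ACTA2, an actin whose sequence is near that of the skeletal actin ACTA1, so its name is uncertain. B and plasma cell markers (0 of 7) were not in the table.

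The goat genes whose x-folds lay nearest to the medians of the named genes were LAMTOR5, MID1IP1, CPEB2, LOC102190544 and EMC2. Likeness was the distance over the 3 log2 x-folds, among 3721 genes with a mean of at least 20 CPM, and the distances ran from 0.394 for LAMTOR5 to 0.537 for EMC2. LAMTOR5 had 226, 352, 2 and 152 counts and x-folds of 2.37, 0.502 and 1.52, and EMC2 223, 293, 2 and 120 counts. Each of the 5 had 1 to 4 counts in T2.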

How the data were processed

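Total RNA of longissimus muscle was sequenced by the authors on an Illumina instrument after TRIzol extraction and library preparation with a NEBNext Ultra kit. Per the submitters' processing notes, reads were checked with FastQC 0.10.1. The assembler, the counting tool and the annotation behind the goat gene names are not given in the sources used here. For each unigene the authors deposited expected counts, all of them whole numbers, with FPKM and TPM values, and percent identities of protein matches.

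Here the deposited expected counts were summed over the unigenes of each goat gene name. The 25 unigenes whose match has no gene name were left out of the totals, and an alternative includes them. x-Folds were computed as shares relative to the control library, with exact 95% intervals. Groups were compared with edgeR 4.0.16 (TMM factors, quasi-likelihood test, Benjamini-Hochberg adjustment, 20 counts minimum), and DESeq2 1.42.0 in R 4.3.3 was an alternative. The deposited FPKM and TPM values, with 0.1 added, served only as alternatives, and percent identities deposited by the authors served for a minimum of 80%. Python 3.11.15, scipy 1.17.1 and Biopython were used, and scripts were tested on simulated data. The libraries held 6675218 to 8533046 counts. Of each list, the 3 most abundant genes, and those past the same limit in all 3 treated libraries, could be named, and examples were taken from these. The genes and lists were chosen with earlier results of these data known.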

Additional observations from a re-analysis of the deposited data

Results flagged for a closer look

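Counts in T1 above the control level appeared in FOSB-matching unigenes outside the 5 named genes. Only those whose x-fold interval in T1 lay above 1 are listed, so they are high in T1 by selection. Not listed were c7944_g1, with 8 counts in T1 beside 3 in the control library (0.976 to 23.8), and c7944_g2, with 8 beside 6 (0.619 to 7.11). The FOSB-matching unigene c10462_g1, without a goat gene, had 125 counts in T1 beside 8 in the control library, 0 in T2 and 5 in T3. The FOSB-matching unigene c46308_g1, also without a goat gene, had 22 beside 9, 0 and 5. The unigene c51196_g1, which is summed under the goat gene LOC100860839, had 6 beside 0, 0 and 1. Groups of 3 treated libraries were too small for a check of outlying libraries.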

How the results depend on the processing

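No paired analysis was possible because there is only 1 control library and no label pairs it with a treated library. Of the x-folds of the 5 named genes, 180 were recomputed: 128 stayed within their interval, and 49 moved further. Some settings could not change a value. Leaving out the JUND-matching unigene touches only JUN, and taking the unigene of highest mean FPKM touches only JUN and EGR1. The 128, and the 13 settings given below for each gene, thus include values fixed in advance. Of values past a limit as reported, 3 changed direction, all in T2, namely ATF3 with 5 counts added (1.88) and EGR1 relative to all counts (0.166) or to all protein-match counts (0.181). In T1 all 5 genes stayed above 1 in 13 of 13 settings (FOS 1.41 to 2.67, JUN 1.82 to 3.44, JUNB 3.61 to 6.82, ATF3 4.08 to 7.72, EGR1 2.03 to 3.84), and in T3 JUNB stayed above 1 (1.63 to 3.94) and FOS below (0.372 to 0.901). Values within the limits also crossed 1: in T3 JUN was above 1 in 8 of 13 settings (0.652 to 1.58), ATF3 in 10 (0.714 to 1.73) and EGR1 in 11 (0.965 to 3.36), and in T2 JUNB in 8 (0.0339 to 4.87). The number of named genes past a limit in T1 was 2 as reported. It was 4 with TMM sizes, DESeq2 size factors or the median ratio set to 1, and 5 with limits of 2 and 0.5, all higher. In these settings 759, 657, 763 and 957 of 8633 goat genes were past the upper limit. Past the lower limit were 2188, 2416, 2179 and 2534. In T3 the number of named genes past a limit was 0 as reported. It was 1 (lower) with all counts, all protein-match counts or GAPDH as reference, where 6263, 6110 and 6154 goat genes were lower. It was 1 (higher) with TMM sizes, DESeq2 size factors, the median ratio, FPKM or limits of 2 and 0.5. In those settings 431, 412, 503, 223 and 593 goat genes were higher. With TPM it was 2, 1 higher and 1 lower, beside 171 and 4220 goat genes. Of all goat genes, 3710, 4065 and 3527 were past a limit in T1, T2 and T3. With a minimum of 100 counts these were 2280 in T1 and 2212 in T3, where fewer genes were tested. In T2 they were 8557 with all counts, 8551 with all protein-match counts and 6215 without a filter. In T3 they were 6329, 6179, 2333 with the median ratio and 6220 with GAPDH. The split of higher against lower was 443 to 3267 in T1 as reported and 759 to 2188 with TMM sizes or 763 to 2179 with the median ratio. In T2 it was 1359 to 2706, against 8 to 8549 with all counts, 708 to 4539 with GAPDH, 1004 to 4438 with FPKM, 836 to 4790 with TPM and 4429 to 518 with 5 counts added. In T3 it was 236 to 3291, against 431 to 2007 with TMM sizes and 503 to 1830 with the median ratio. The edgeR count of 51 genes became 86 with RLE factors, 104 without a filter, 106 at 80% identity or more, 222 for unigenes, 4 with DESeq2 and 1 to 9 with a treated library left out (9 without T1, 5 without T2 and 1 without T3), and the named genes called stayed at 0 throughout. The split of 22 higher and 29 lower was 8 and 65 with total counts in place of TMM. For the other changes the cause was not tested. Depth limits T2, where 3 counts are 22.4 CPM.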
